A study of Homo sapiens with 2 samples.

Results

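Kinesins are the motor proteins that walk along microtubules, and their genes carry the symbol KIF followed by a number. Of 43424 gene symbols in the counts, 39 met that rule once antisense, divergent and binding-protein genes were left out. By their known roles, 14 were mitotic kinesins, 15 were transport kinesins and 10 acted in cilia or had other roles. They were compared in Hep3B, an established human hepatocellular carcinoma line, between 1 control library, from cells that received the solvent dimethyl sulfoxide (DMSO), and 1 library from cells that received Glehnia littoralis extract (GLE). The labels call both libraries wild type, and name liver epithelial cells as the cell type. For these libraries, the sources used here give neither the dose of the extract nor how long the cells were exposed. The study asked whether the extract acts on Hep3B, with apoptosis as its interest.

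Kinesins turn ATP hydrolysis into steps or into force on the ends of microtubules. Mitotic kinesins push spindle poles apart, align chromosomes, shorten microtubules and build the midbody at cytokinesis, and many of their genes are switched on in G2 and mitosis. Transport kinesins carry vesicles, mitochondria and other organelles through the cytoplasm in all phases of the cell cycle. Hepatocytes use such motors to move secretory and endocytic vesicles between their poles.

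The control library held 5618328 counts and the GLE library 3636351. Values are CPM, counts scaled to a common library size after scaling by the trimmed mean of M-values (TMM). The kit reads the 3′ end of each messenger RNA, so counts were not divided by gene length. A ratio is GLE over control, and its range in parentheses is the exact Clopper-Pearson 95% interval, which covers counting error only. With 1 library per group there is no replicate check and no test between conditions, and differences between cultures cannot be told apart from an effect of the extract. All 8 hepatocyte and hepatoma markers were counted in both libraries, at a summed 8242 CPM (control) and 5172 CPM (GLE). Of 10 markers of other cell types, 3 reached 30 counts in all, and the list summed to 28.9 and 40.7 CPM. CD3E, VWF and DES were at 0 in both libraries. COL1A1 had 4 control and 29 GLE counts and PECAM1 36 and 1, and the part of such cells in the kinesin values was not tested.

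The family as a whole lay near the background of the libraries. Of the 39 kinesins, 27 had at least 30 counts summed over both libraries, 7 had fewer and 5 had none. KIF3A and KIF27 were at least 2-fold higher, 7.41% of the 27, against 9.54% of 11068 measured genes. KIF1A and KIF9 were at least 2-fold lower, again 7.41%, against 10.5% of all genes. At 1.5-fold, 5 kinesins were higher and 3 lower, beside 19.3% and 21.9% of all genes. The interval lay above 1 for 7 kinesins and below 1 for 7, which is 25.9% each way, beside 27.7% and 30.1% of all genes. The median log2 ratio of the 27 was 0.06, and that of all measured genes -0.04. Kinesin counts made up 0.181% of the control library and 0.165% of the GLE library. The summed ratio of the family was 0.962 (0.932 to 0.994), and the differences described below lay in single members and in both directions.

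**Figure D1:**
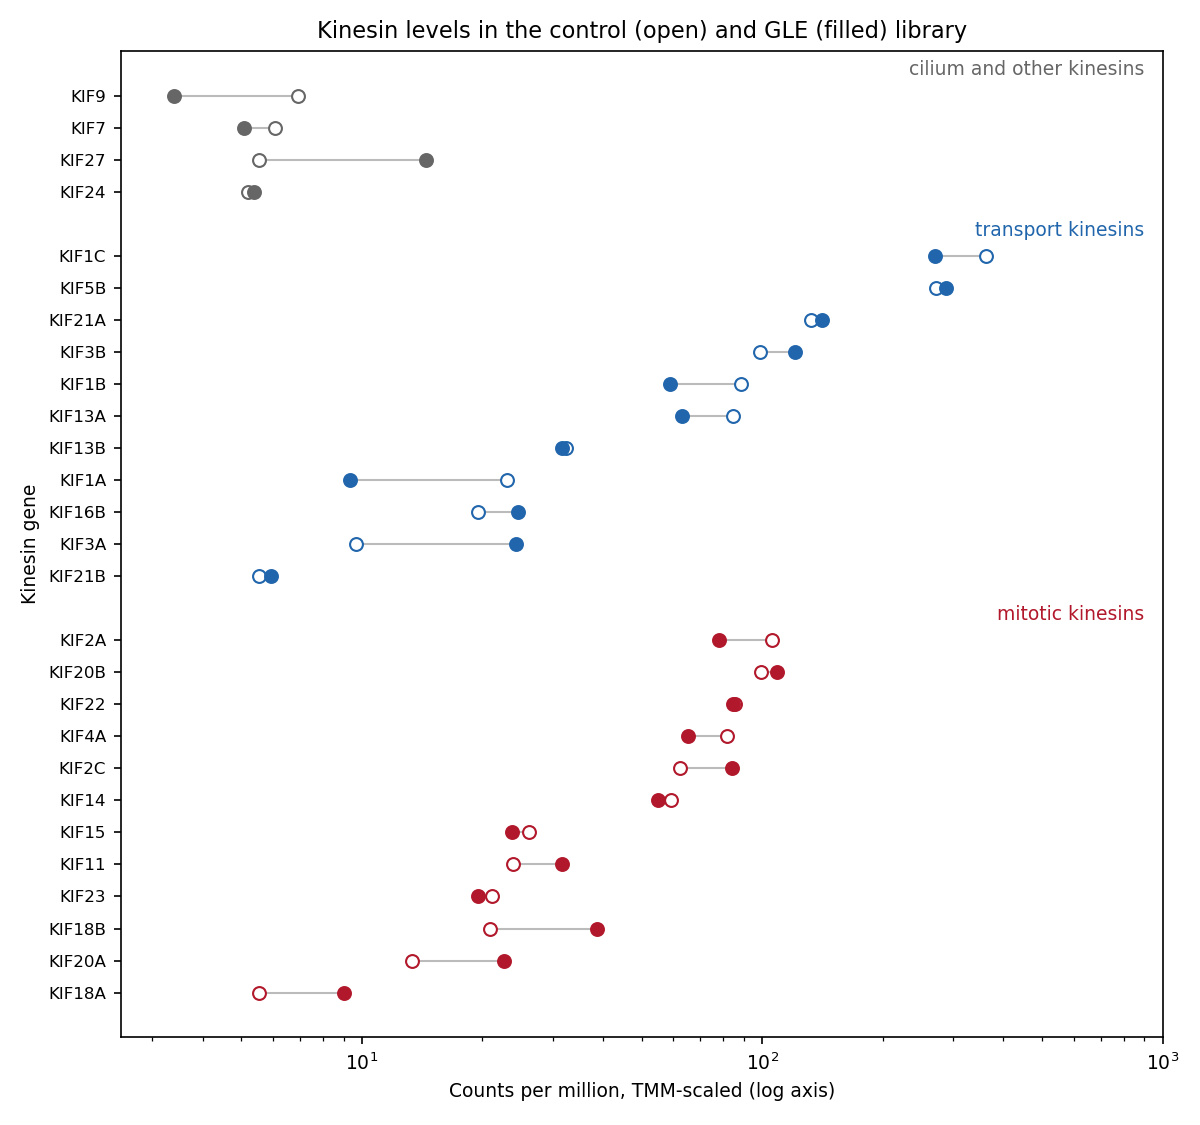
TMM-scaled CPM (log axis) of the 27 measured kinesins in the control library (open points) and the GLE library (filled points), grouped by role. KIF1C and KIF5B lie highest, and the widest gaps are those of KIF1A, KIF3A and KIF27.

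Mitotic kinesins lay on both sides of 1 and none was beyond 2-fold, except that KIF18B reached 2.05 with the trend over transcript GC content removed. Of 14 members, 12 were measured. The interval lay above 1 for KIF18B, KIF20A, KIF2C and KIF11, below 1 for KIF2A and KIF4A, and spanned 1 for 6. Their median log2 ratio was 0.06. Their summed level was 605 CPM under DMSO and 621 CPM under GLE, a ratio of 1.03 (0.973 to 1.08). In a bulk culture, a different number of cells in mitosis and a different amount of messenger RNA per mitotic cell cannot be told apart.

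KIF18B, a plus-end motor that limits the length of astral microtubules, had the highest ratio of this group. It had 121 control and 137 GLE counts, which is 20.9 and 38.7 CPM and a ratio of 1.85 (1.44 to 2.38). The gene lies on chromosome 17 (44924711 to 44947773, GRCh38). Its relative KIF18A, which dampens chromosome movements at the metaphase plate, had 32 counts in each library, or 5.54 and 9.05 CPM. That gives a ratio of 1.63 (0.969 to 2.75), so a difference of KIF18A was not detectable at this depth. Within this pair the share of KIF18B counts was 79.1% in the control (71.8 to 85.2) and 81.1% in the GLE library (74.3 to 86.7), and these intervals overlap. KIF19, the remaining kinesin-8 gene, which trims cilia, was at 0 in both.

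The kinesin-6 genes, which act at the central spindle and midbody, did not share a direction. KIF20A, a motor required for cytokinesis, lies on chromosome 5 (138179112 to 138187723) and had 77 control and 80 GLE counts. Its level was 13.3 CPM and 22.6 CPM, a ratio of 1.70 (1.23 to 2.35). The 3′ end of KIF20A overlaps an exon of CDC23, an anaphase-promoting complex subunit read from the opposite strand. CDC23 had 184 and 190 counts, a ratio of 1.69 (1.37 to 2.08), and without the strand setting of the counting the reads of these genes cannot be told apart. KIF23, the motor subunit of centralspindlin, had 122 and 69 counts and a ratio of 0.924 (0.678 to 1.25). KIF20B, which also acts in cytokinesis, had 575 and 386 counts and a ratio of 1.10 (0.962 to 1.25). Of these 3 genes KIF20A alone had an interval that excluded 1.

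The kinesin-13 genes, which remove tubulin from microtubule ends, lay on opposite sides. KIF2C, the centromeric depolymerase MCAK, had 360 control and 297 GLE counts, 62.3 and 84.0 CPM, a ratio of 1.35 (1.15 to 1.58). KIF2A, which works at spindle poles and also outside mitosis, had 612 and 276 counts, 105.9 and 78.1 CPM, a ratio of 0.737 (0.637 to 0.851). The intervals of these genes do not overlap. KIF2C is among the 8 of 27 measured kinesins whose 3′ end overlaps a transcript on the opposite strand. The others are KIF20A, KIF3A, KIF7, KIF13B, KIF22, KIF24 and KIF27. The partner of KIF24 there, UBAP1, had a ratio of 1.61 (1.26 to 2.05). KIF2C made up 37.0% of the summed counts of KIF2C and KIF2A in the control (34.0 to 40.2) and 51.8% in the GLE library (47.7 to 56.0). That comparison lies inside each library and needs no scaling between them. KIF24, a kinesin-13 that holds back cilium growth, had 30 and 19 counts and a ratio of 1.03 (0.550 to 1.90), and KIF2B was at 0 in both libraries.

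Spindle and chromosome motors completed the group. KIF11, known as Eg5, slides the spindle poles apart and had 138 and 112 counts, a ratio of 1.33 (1.02 to 1.71). The lower end of that interval fell to 0.968 with scaling by total counts and to 0.938 with the trend over transcript GC content removed. KIF15, which can stand in for Eg5, had 151 and 84 counts and a ratio of 0.909 (0.688 to 1.19). KIF4A, a chromosome-bound motor that sets the length of the central spindle with PRC1, had 473 and 231 counts, or 81.9 and 65.3 CPM, a ratio of 0.798 (0.679 to 0.936). KIF4B, an intronless copy close to KIF4A in sequence, was at 0 in both libraries, and the split of reads between such copies is uncertain. KIF14, which acts in the midbody, had 342 and 194 counts and a ratio of 0.927 (0.773 to 1.11). KIF22, a chromosome-arm motor, had 493 and 299 counts and a ratio of 0.991 (0.856 to 1.15). The differences in this set were small, and KIF4A was its only member with an interval below 1.

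**Figure D2:**
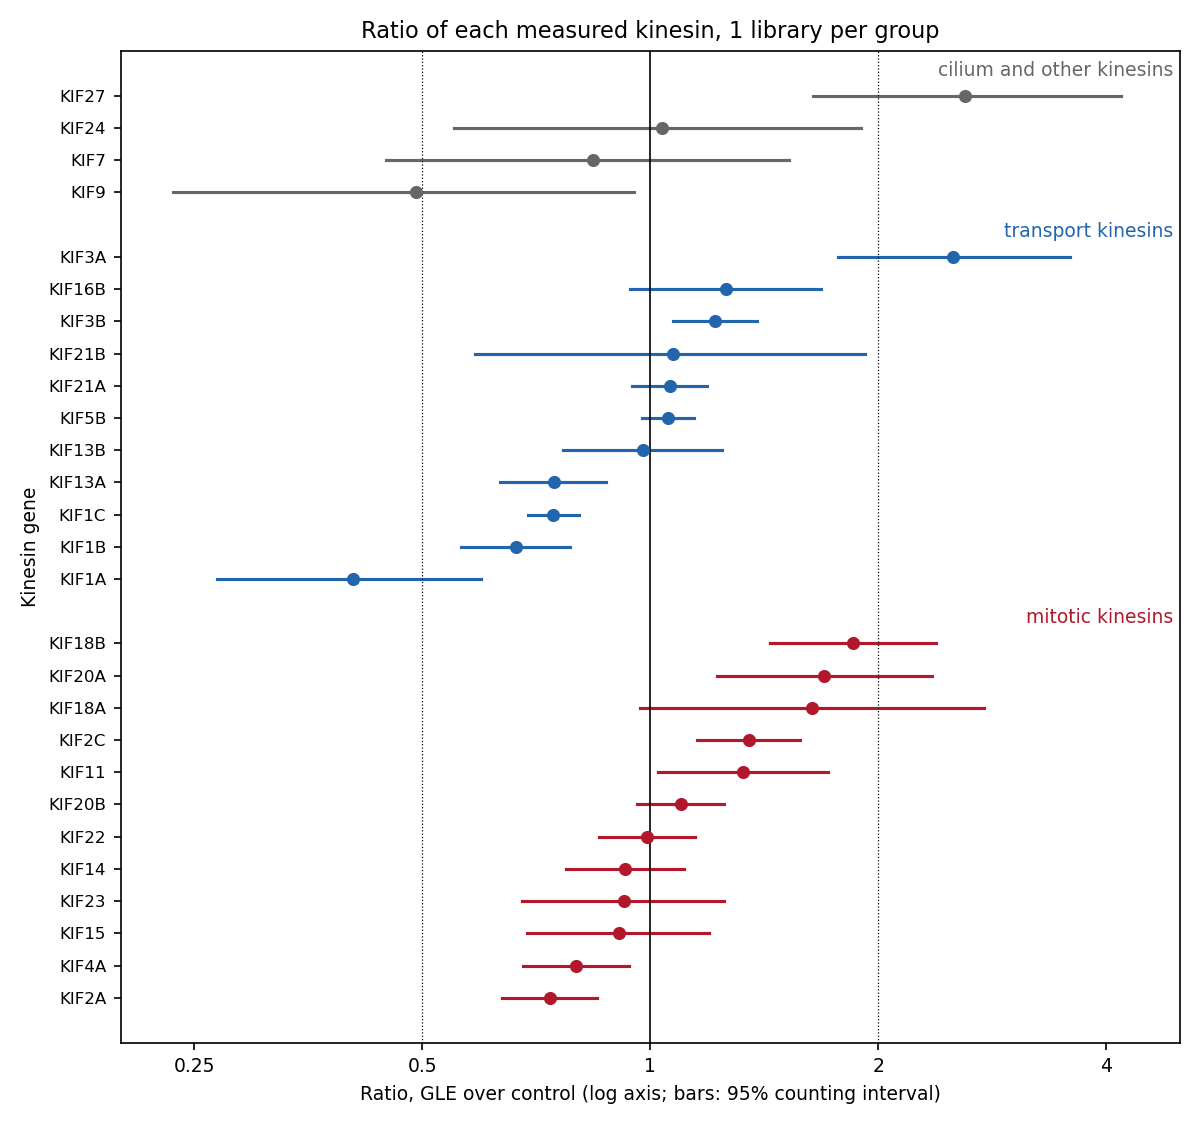
Ratio of GLE over control (log axis) for the 27 measured kinesins, with 95% counting intervals as bars, a solid line at 1 and dotted lines at 2-fold in each direction. Each role group has members on both sides of 1, and KIF1A, KIF9, KIF3A and KIF27 lie beyond 2-fold.

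Most mitotic kinesins carried cell cycle motifs in their promoters, whichever side of 1 their ratio lay on. The cell cycle genes homology region (CHR), through which the MuvB complex acts on genes of G2 and mitosis, was searched as TTTGAA or TTTAAA, and the CCAAT box, bound by NF-Y, as CCAAT. Both strands were read in RefSeq windows of GRCh38.p14 from 250 bases before to 50 bases after the start that each window used. A window was found for 33 kinesins, and KIF5A, KIF13B, KIF19, KIF21B, KIF26B and KIF27 had none. The start used was that of the RefSeq gene, except for KIF5C, KIF7 and KIF24, where it lay inside the gene. Bases after the start were found in a GENCODE transcript of the gene for 25 of the 33 windows. Shown here are bases -120 to 30 around the start of the 4 mitotic members with an interval above 1 and then the 2 with an interval below 1, each 5′ to 3′ on the strand of the gene, with CHR and CCAAT matches in capitals.
KIF18B (chr17:44947744-44947893, minus strand): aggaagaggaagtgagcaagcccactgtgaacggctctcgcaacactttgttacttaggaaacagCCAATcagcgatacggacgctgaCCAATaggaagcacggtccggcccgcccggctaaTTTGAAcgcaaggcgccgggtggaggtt
KIF20A (chr5:138178992-138179141, plus strand): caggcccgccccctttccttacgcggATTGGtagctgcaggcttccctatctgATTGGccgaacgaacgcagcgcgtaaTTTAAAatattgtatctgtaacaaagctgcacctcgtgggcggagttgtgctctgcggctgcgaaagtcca
KIF2C (chr1:44739717-44739866, plus strand): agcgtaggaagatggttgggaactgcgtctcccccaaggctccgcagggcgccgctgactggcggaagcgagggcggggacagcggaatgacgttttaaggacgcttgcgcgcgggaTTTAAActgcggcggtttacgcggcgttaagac
KIF11 (chr10:92593010-92593159, plus strand): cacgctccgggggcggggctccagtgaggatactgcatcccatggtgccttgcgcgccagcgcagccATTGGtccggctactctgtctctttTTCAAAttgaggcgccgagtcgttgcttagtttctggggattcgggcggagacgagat
KIF4A (chrX:70289984-70290133, plus strand): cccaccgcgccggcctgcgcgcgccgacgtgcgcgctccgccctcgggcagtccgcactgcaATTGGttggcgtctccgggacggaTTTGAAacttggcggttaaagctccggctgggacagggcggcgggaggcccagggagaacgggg
KIF2A (chr5:62306086-62306235, plus strand): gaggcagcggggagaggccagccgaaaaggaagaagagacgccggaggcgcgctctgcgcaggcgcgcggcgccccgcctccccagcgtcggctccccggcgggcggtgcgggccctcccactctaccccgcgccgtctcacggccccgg

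In these stretches KIF18B, KIF20A, KIF11 and KIF4A carry a CCAAT match upstream of a CHR match, KIF2C carries a CHR match alone, and KIF2A carries neither. KIF4A, with a ratio of 0.798, thus has the same pair of motifs as KIF18B, with a ratio of 1.85. A CHR match stood in 11 of 14 mitotic windows, 2 of 12 transport windows and 0 of 7 of the remaining windows. It stood in 24.3% of all 27305 windows of this length in the table, and in 15.4% of the 8923 windows of measured genes. A CCAAT match stood in 10 of 14 mitotic and 3 of 12 transport windows, against 35.7% of all windows. Both motifs stood in 9 of 14 mitotic windows and 1 of 12 transport windows, that of KIF5B, against 9.49% of all windows.

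Among the 10 measured mitotic kinesins with a CHR match, the match nearest the start began between base -55 in KIF23 and base 25 in KIF20B. The E2F-like motifs TTCCCGC and TTGGCGC were found in 3 of 14 mitotic windows (KIF15, KIF18A and KIF18B) and 3 of 12 transport windows. They were found in 9.33% of all windows and in 15.2% of the 8923 windows of measured genes. A pair of motif matches overlapped once in all member windows. A match describes letters and is not evidence of binding.

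**Figure D3:**
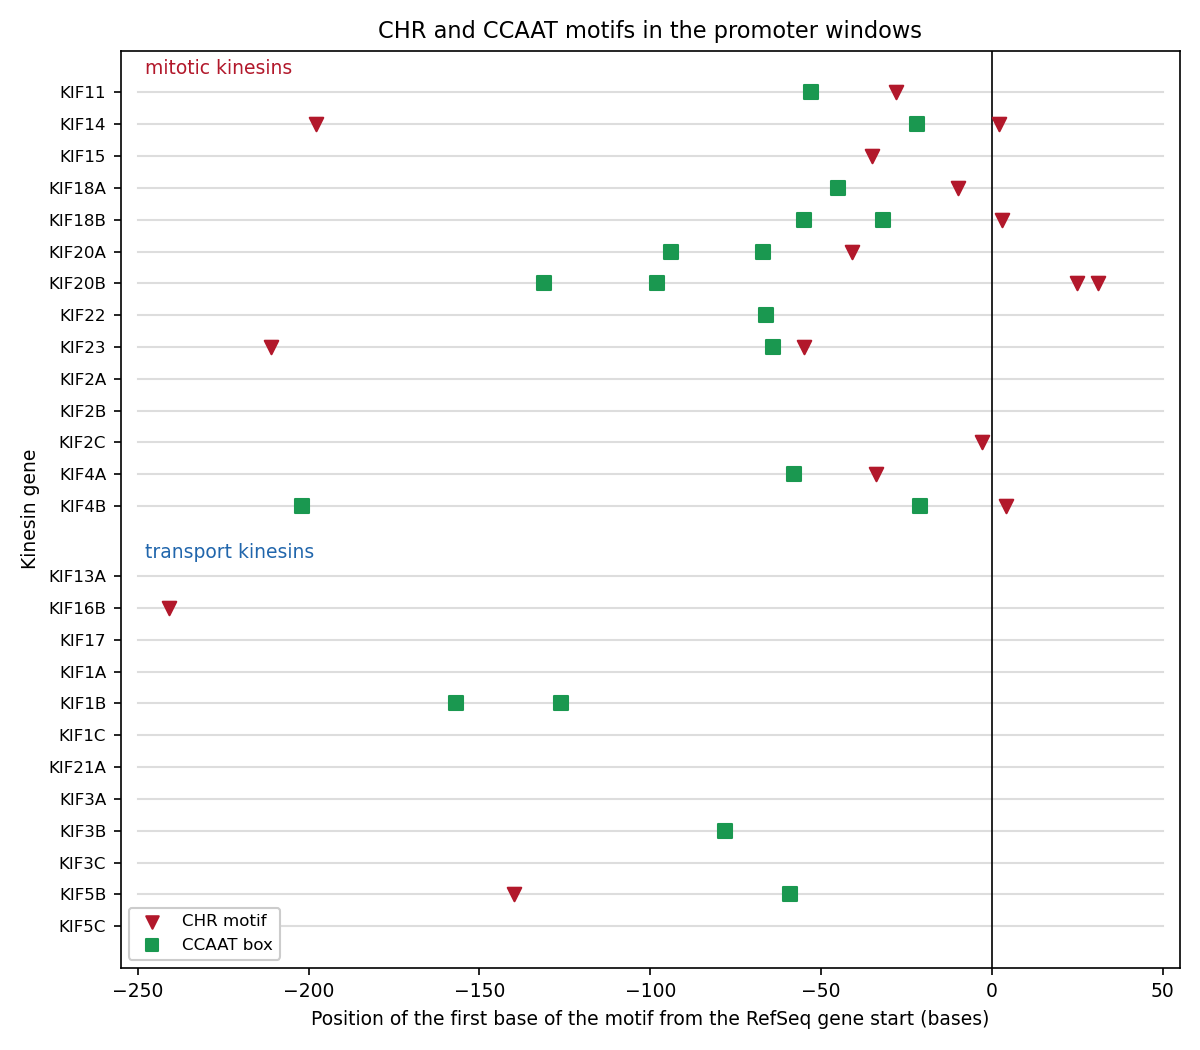
Position, in bases from the RefSeq start used for each window, of CHR motifs (triangles) and CCAAT boxes (squares) in the windows of 14 mitotic and 12 transport kinesins. CHR motifs stand in 11 mitotic windows, mostly close to the start, and in 2 transport windows, both over 100 bases before it.

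Transport kinesins also lay on both sides of 1, with a wider spread. Of 15 members, 11 were measured, with ratios from 0.405 for KIF1A to 2.51 for KIF3A. The interval lay above 1 for KIF3A and KIF3B, below 1 for KIF1A, KIF1B, KIF1C and KIF13A, and spanned 1 for 5. Their median log2 ratio was 0.08. Their summed level was 1132 CPM under DMSO and 1042 CPM under GLE, a ratio of 0.920 (0.884 to 0.959).

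The 4 transport members with an interval below 1 all belong to kinesin-3, the family of long-range vesicle motors. KIF1A, best known as the carrier of synaptic vesicle precursors in neurons, lies on chromosome 2 (240713767 to 240821403) and had 133 control and 33 GLE counts. Its level was 23.0 CPM under DMSO and 9.33 CPM under GLE, a ratio of 0.405 (0.268 to 0.597). KIF1B, a motor of mitochondria and vesicles, had 511 and 208 counts and a ratio of 0.665 (0.563 to 0.783). KIF1C, a vesicle motor, lies on chromosome 17 (4997950 to 5028401) and had 2095 and 955 counts, the most counts of any kinesin in the control. Its level was 362.6 CPM and 270.1 CPM, a ratio of 0.745 (0.689 to 0.805). KIF13A, a motor of recycling endosomes, had 489 and 223 counts and a ratio of 0.745 (0.633 to 0.875). KIF1A was therefore the lowest of the measured kinesins, while the other 3 differed by less than 2-fold.

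The remaining kinesin-3 genes had intervals that spanned 1. KIF13B, another vesicle motor, had 187 and 112 counts and a ratio of 0.979 (0.767 to 1.24). KIF16B, a motor of early endosomes, had 113 and 87 counts and a ratio of 1.26 (0.940 to 1.68). With the mitotic KIF14, kinesin-3 had 7 measured members, 4 with an interval below 1 and 0 above, beside 30.1% and 27.7% of all measured genes, and a median log2 ratio of -0.42. The grouping by family was made after the values were seen, and it is a description only. Summed over the family, 3870 control and 1812 GLE counts gave a ratio of 0.765 (0.723 to 0.809), and KIF1C held most of them.

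Genes of heterotrimeric kinesin-2, which moves cargo along cilia and in the cytoplasm, were higher in the GLE library. KIF3A, one of its motor subunits, lies on chromosome 5 (132688812 to 132737546) and had 56 control and 86 GLE counts, 9.69 and 24.3 CPM. Its ratio of 2.51 (1.77 to 3.58) was the highest among measured transport kinesins, and its 3′ end overlaps an unnamed transcript on the opposite strand. KIF3B, the partner motor, had 571 and 426 counts, 98.8 and 120.5 CPM, a ratio of 1.22 (1.07 to 1.38). KIFAP3, the accessory subunit that joins cargo to the motor pair, had 38 and 76 counts, 6.58 and 21.5 CPM, a ratio of 3.27 (2.19 to 4.96). All 3 intervals lay above 1, and those of KIF3A and KIFAP3 did not overlap that of KIF3B. KIF3A took 8.93% of the counts of KIF3A and KIF3B in the control (6.82 to 11.4) and 16.8% in the GLE library (13.7 to 20.3). KIF3C, an alternative partner, had 8 and 6 counts and KIF17, a homodimeric relative, 2 and 3, too few to show a difference.

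Conventional kinesin, or kinesin-1, differed little. KIF5B, its ubiquitous heavy chain and a motor of mitochondria and lysosomes, had 1572 control and 1016 GLE counts, 272.1 and 287.3 CPM, a ratio of 1.06 (0.975 to 1.14). The neuronal heavy chains KIF5A and KIF5C had 2 counts in each library and 4 and 9 counts, the latter a ratio of 3.68 (1.03 to 16.3) from few reads. KIF21A and KIF21B, kinesin-4 motors that also restrain microtubule growth, had ratios of 1.06 (0.946 to 1.19) and 1.07 (0.588 to 1.92), from 767 and 498 counts and from 32 and 21 counts. For KIF5B the interval excludes a difference of 2-fold by counting error, and for KIF21B it nearly reaches it.

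Kinesins of cilia and signalling were counted at low depth. KIF27, a kinesin-4 linked to motile cilia, lies on chromosome 9 (83834099 to 83921432) and had 32 control and 51 GLE counts, 5.54 and 14.4 CPM, a ratio of 2.60 (1.64 to 4.19). It had the highest ratio of all measured kinesins, and transcripts on the opposite strand overlap its 3′ end. KIF7, its relative in Hedgehog signalling, had 35 and 18 counts and a ratio of 0.840 (0.448 to 1.52). The 3′ end of KIF7 overlaps TICRR, a replication gene on the opposite strand with a ratio of 3.91 (2.58 to 6.06). KIF9, a motor of motile cilia on chromosome 3 (47227998 to 47282799), had 40 and 12 counts, 6.92 and 3.39 CPM, a ratio of 0.490 (0.234 to 0.953). KIF27 and KIF9 were the only measured members of this group with an interval that excluded 1. Below 30 summed counts, KIF12 had 9 and 14, a ratio of 2.54 (1.02 to 6.66), KIF26B 4 and 7, and KIF6 4 and 0. The floor of 3 counts that a count of 0 allows was 0.519 CPM (control) and 0.848 CPM (GLE). KIF19, KIF25, KIF26A, KIF2B and KIF4B lay under it in both.

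Set side by side, the mitotic and transport groups had nearly the same centre. The median log2 ratios were 0.06 over 12 mitotic and 0.08 over 11 transport members, beside -0.04 over all measured genes. With scaling by total counts these medians fell to -0.02, -0.0018 and -0.12, a shift shared by all genes. Intervals above 1 were held by 4 mitotic and 2 transport members, and intervals below 1 by 2 and 4. As a share of all kinesin counts, mitotic members took 34.3% in the control (33.4 to 35.2) and 36.6% in the GLE library (35.4 to 37.8), and transport members took 64.2% (63.2 to 65.1) and 61.4% (60.1 to 62.6). KIF1C alone took 20.6% of control and 15.9% of GLE kinesin counts. Without KIF1C, the mitotic share was 43.2% (42.1 to 44.3) and 43.5% (42.1 to 44.9), so the difference in shares rests on that gene.

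Among kinesins that carry other symbols, CENPE, the kinetochore motor that brings chromosomes to the metaphase plate, had 454 and 341 counts and a ratio of 1.23 (1.06 to 1.42). KIFC1, a minus-end motor that clusters spindle poles, had a ratio of 0.980 (0.630 to 1.51). KIFC2 and KIFC3, minus-end motors linked to transport and adhesion, had ratios of 0.552 (0.336 to 0.879) and 0.738 (0.554 to 0.975). STARD9, also in this set, had 2 and 5 counts, too few to show a difference. Of the 4 measured genes, CENPE and KIFC1 were thus slightly higher or level, and KIFC2 and KIFC3 lower.

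Among transcripts of proteins that work with mitotic kinesins, the interval lay above 1 for 13 of 20 measured genes and below 1 for 2, beside 27.7% and 30.1% of all measured genes. Their median log2 ratio was 0.35, and 2 were at least 2-fold higher, a share near the 9.54% of all genes. ANLN, the cleavage furrow scaffold anillin, had a ratio of 2.23 (1.97 to 2.52), and HMMR, a spindle assembly factor, 2.01 (1.55 to 2.60). CDK1, the kinase of mitotic entry, had a ratio of 1.58 (1.41 to 1.76), and AURKB, the kinase that restrains KIF2C at centromeres, 1.67 (1.54 to 1.81). RACGAP1, which forms centralspindlin with KIF23, had a ratio of 1.76 (1.28 to 2.41), beside 0.924 for KIF23. PRC1, the bundling partner of KIF4A, had a ratio of 1.15 (1.03 to 1.29), beside 0.798 for KIF4A. TPX2, a regulator of KIF11 on the spindle, had a ratio of 1.09 (1.02 to 1.16). The 2 partners with an interval below 1 were CCNB1, at 0.776 (0.673 to 0.893), and AURKA, at 0.851 (0.759 to 0.952). CCNB1 and AURKA were named after their values were seen.

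**Figure D4:**
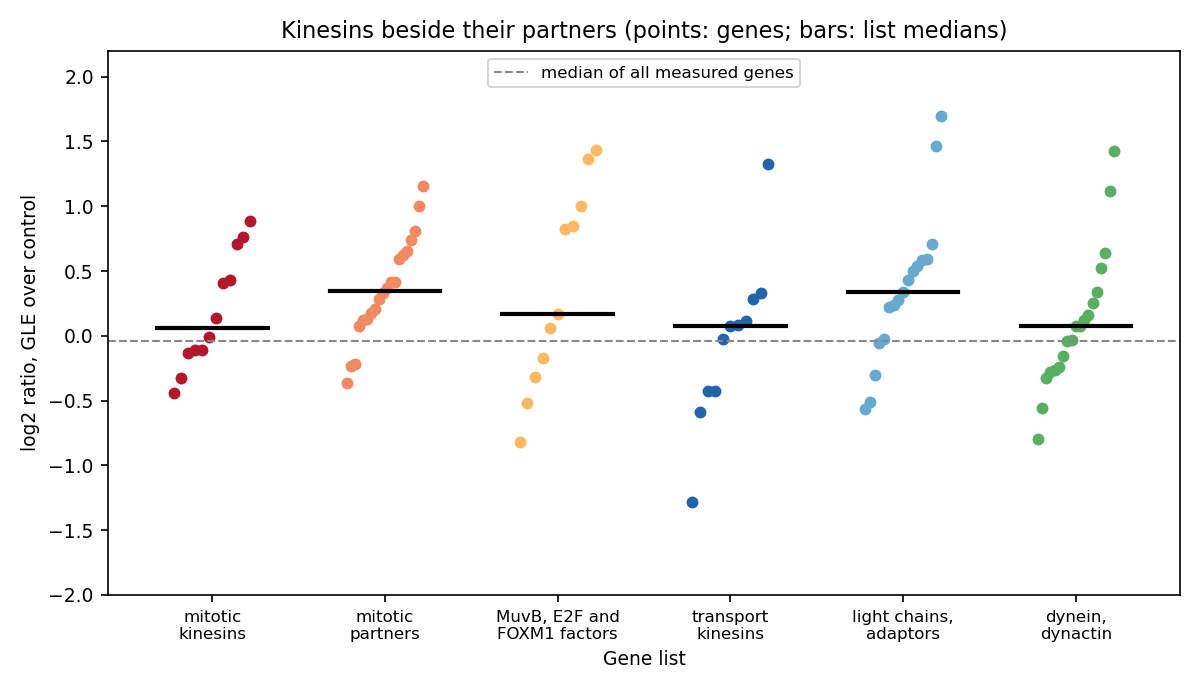
log2 ratio of GLE over control for each measured gene (points) in 6 lists, with list medians as bars and the median of all measured genes as a dashed line. Mitotic partners and transport adaptors have medians of 0.35 and 0.34, and the kinesin groups lie at 0.06 and 0.08.

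Of 11 regulators of cell cycle transcription, 5 had an interval above 1 and 3 below, with a median log2 ratio of 0.17, beside 27.7% of all measured genes above 1 and 30.1% below. LIN54, the MuvB subunit that contacts the CHR, had a ratio of 2.71 (1.93 to 3.85), and LIN52, another subunit, 2.58 (2.03 to 3.30). RBL1, the pocket protein p107, had a ratio of 1.77 (1.42 to 2.21). MYBL2, which joins MuvB to activate late cell cycle genes, had 332 and 115 counts and a ratio of 0.566 (0.454 to 0.702). The MuvB subunits LIN9 and LIN37 had ratios of 2.01 and 1.81, with lower interval ends of 1.35 and 1.14. RBBP4, a histone-binding subunit of MuvB, lay below 1, at 0.802 (0.690 to 0.930). Among the listed MuvB subunits, LIN54, LIN52, LIN9 and LIN37 thus had intervals above 1, and RBBP4 alone had an interval below 1.

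Light chains and adaptors of transport kinesins had 8 of 17 measured members with an interval above 1 and 2 below, beside 27.7% and 30.1% of all measured genes, and a median log2 ratio of 0.34. KIFBP, which binds kinesin motor domains and blocks them from microtubules, had 37 and 63 counts, 6.40 and 17.8 CPM, a ratio of 2.78 (1.83 to 4.30). KIFBP and KIFAP3 were the 2 measured members beyond 2-fold, where 9.54% of all genes were that much higher. KLC1, a light chain of KIF5 motors, had a ratio of 1.41 (1.22 to 1.63). RHOT2, a mitochondrial receptor for kinesin-1, had a ratio of 1.5 (1.28 to 1.75), and KIDINS220, a membrane scaffold carried by kinesin-1, 1.51 (1.24 to 1.82). Their motor KIF5B stood at 1.06.

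Dynein and dynactin, which move cargo toward microtubule minus ends, had 4 of 19 measured members with an interval above 1 and 7 below, beside 27.7% and 30.1% of all measured genes, with a median log2 ratio of 0.07. DYNC1H1, the heavy chain and motor itself, had 1429 and 502 counts and a ratio of 0.574 (0.518 to 0.636). Its regulators NDEL1 and PAFAH1B1 had ratios of 2.69 (2.22 to 3.28) and 1.56 (1.38 to 1.76), and the dynactin subunit DCTN6 had 2.17 (1.58 to 3.0). Among other dynactin subunits, DCTN1 at 0.847 (0.738 to 0.971), DCTN5 at 0.833 (0.720 to 0.963) and ACTR1A at 0.795 (0.683 to 0.925) had intervals below 1. Intervals spanned 1 for DCTN2 at 0.974 (0.864 to 1.10), DCTN3 at 1.26 (0.948 to 1.68) and DCTN4 at 1.19 (0.993 to 1.42). The dynactin subunits other than DCTN6 were named after their values were seen, like RBBP4, LIN9 and LIN37 above.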

How the data were processed

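Polyadenylated RNA of 2 Hep3B libraries was sequenced from the 3′ end. The authors deposited unnormalized counts for each gene symbol, and per the labels the kit was a Lexogen QuantSeq. Per the submitters' processing notes, fastp, STAR, HTSeq and GRCh38 were used. Their versions, the annotation and the strand setting were not given in the sources used here. Counts were scaled by TMM in edgeR 4.0.16 (R 4.3.3), with factors of 1.03 for the control and 0.972 for GLE. Genes with at least 30 summed counts were kept, 0.5 was added to counts before log2, and ratios carry Clopper-Pearson intervals (SciPy 1.17.1). These cover counting error only. Reads that carry no molecular identifier can be copies of 1 molecule, which the intervals do not allow for. Members and lists were chosen with earlier results of these data known.

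All kinesins are accounted for, and 1 listed marker gene is not reported here. From each partner list up to 4 genes with the interval bound farthest from 1 are named, plus CENPE, KIFC1, KLC1, KIFAP3, KIFBP, PRC1, TPX2, RACGAP1 and AURKB. Genes of these lists beyond that rule were named after their values were seen. KIF positions and promoter windows come from RefSeq (GRCh38.p14), which held all 39 genes and 33 windows. Overlaps within 500 bases of transcript ends and GC content come from GENCODE release 29. The ratio script was checked on simulated counts; the reported ratios carry no test between conditions. Alternatives were other scalings (total counts, DESeq2 1.42.0 size factors, upper quartile, totals leaving out mitochondrial genes and the 20 with most counts), thinning, other minimums, 2 added before log2, 1.5-fold, roles moved and KIF5B left out. GC trend removal (lowess, span 0.3) and leaving out KIF1C were chosen after seeing the data.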

Additional observations from a re-analysis of the deposited data

How the results depend on the processing

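Under 4 other scalings and thinning, each of the 27 ratios stayed within its own counting interval, and with the GC trend removed 26 did, KIF20B moving to 0.939. The count of kinesins at least 2-fold higher was 5 with a minimum of 10 counts, 1 with a minimum of 100, 6 with no minimum, and 5 at 1.5-fold, and it was 3 with the GC trend removed, where KIF18B reached 2.05. The count at least 2-fold lower was 1 with a minimum of 100 counts and 1 with the GC trend removed, where KIF9 stood at 0.513, and 3 with no minimum. With KIF2A, KIF17, KIF21A and KIF21B moved out of their groups, mitotic members took 28.3% of control and 32% of GLE kinesin counts, and transport members 56.3% and 52.7%. Without KIF5B these shares were 40.6% and 44.1%, and 57.7% and 53.5%. Without KIF1C they were 43.2% and 43.5%, and 54.9% and 54.1%. Apart from total counts, the median log2 ratio of mitotic members was negative at a minimum of 100 counts, at -0.01, and that of transport members was -0.03 with roles moved. No paired analysis was possible because each group has 1 library. Depth limits the 12 kinesins with under 30 summed counts, of which KIF12 and KIF5C alone had intervals that excluded 1.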
